A study of Mus musculus with 12 samples.

Results

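The serpins are a superfamily of protease inhibitors, many of which the liver secretes into plasma. They were taken from the liver expression table as every gene whose symbol starts with Serpin, a clade letter from a to i and a digit. This matched 70 rows, of which 5 carry pseudogene names and were left out. The remaining 65 rows stand among 57010 genes and carry 64 symbols, because Serpina3h is listed under 2 gene identifiers. The Serpina1 cluster holds 6 of the rows and the Serpina3 cluster 12, with 8 further genes in clade A, 28 in clade B and 11 in clades C to I. The livers came from 12 male C57BL/6J mice labelled as wild type, 6 controls and 6 that received Aspergillus oryzae A02, a food fungus grown with selenium, at 0.5 mg selenium per kg in saline by daily gavage. All mice were 6 weeks old at the start, had 7 days of acclimatization, ate a normal diet and were assigned at random, 10 to a group by the protocol, of which 6 libraries per group were used. The control label says that no treatment was given, and it does not mention a saline gavage or the fungus without selenium, so the effects of selenium, fungus and gavage cannot be told apart. The treatment lasted 8 weeks by the design text, while the sample descriptions speak of 14 weeks. The samples are labelled as liver with hepatocyte as their cell type, but markers of other liver cells were present, so the values are those of a mixed tissue.

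A typical inhibitory serpin carries an exposed reactive loop that a protease attacks as if it were a substrate. On cleavage the loop inserts into the serpin and drags the protease with it, which traps both in an inactive complex, and the residues around the cleaved bond decide which proteases are caught. Hepatocytes are the main source of the plasma serpins, which restrain neutrophil elastase, coagulation factors, plasmin and complement proteases, and some members instead carry hormones or assist the folding of collagen. In mice the single human genes for alpha-1-antitrypsin and antichymotrypsin are represented by the Serpina1 and Serpina3 clusters of near-copies.

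The copies differ more in the loop than over the whole coding sequence, so the coding stretch from the loop's hinge onward is shown for the 5 expressed Serpina1 genes, read from GENCODE release M21 transcripts. Each stretch is 66 bases long, 5′ to 3′, and the capitals mark the 13 positions that were not identical in all 5 genes.
Serpina1a: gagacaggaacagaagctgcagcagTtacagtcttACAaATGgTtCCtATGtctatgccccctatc
Serpina1b: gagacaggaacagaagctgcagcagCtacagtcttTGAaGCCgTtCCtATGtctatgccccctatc
Serpina1c: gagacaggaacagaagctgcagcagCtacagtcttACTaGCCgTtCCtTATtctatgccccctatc
Serpina1d: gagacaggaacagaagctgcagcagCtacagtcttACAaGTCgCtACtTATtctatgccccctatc
Serpina1e: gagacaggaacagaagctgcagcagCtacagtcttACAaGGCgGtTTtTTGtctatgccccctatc
The last capital triplet is ATG in Serpina1a and Serpina1b, TAT in Serpina1c and Serpina1d and TTG in Serpina1e. Over these stretches the gene pairs shared 87.9% to 93.9% of bases, against 96.3% to 98.5% over the aligned coding sequence. Reads from the copies are therefore hard to assign: only 26.7% of the 50-base windows of the Serpina1c transcript and 40.0% of those of Serpina1a occurred in no transcript of another serpin gene. Genes outside the serpins were not searched. That share was 52.0% for Serpina1d, 64.4% for Serpina1e and 65.9% for Serpina1b. With 100-base windows the shares were 41.5% for Serpina1c, 52.6% for Serpina1a and 85.2% for Serpina1e, so the split of signal among these copies is uncertain and their sum is less so.

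The 3 most abundant Serpina3 genes differ more, and their loop stretches are shown because their levels are compared one by one. Here the capitals mark everything from the first base that differs between the 3 genes.
Serpina3k: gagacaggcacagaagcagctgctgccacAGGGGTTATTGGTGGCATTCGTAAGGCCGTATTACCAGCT
Serpina3m: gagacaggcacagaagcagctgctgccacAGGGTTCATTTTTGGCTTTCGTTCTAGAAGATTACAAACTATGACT
Serpina3n: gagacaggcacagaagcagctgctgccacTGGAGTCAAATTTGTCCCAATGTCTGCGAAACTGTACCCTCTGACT
The first part of the loop is shared and the part holding the cleaved bond is not. Coding identity ran from 83.8% for Serpina3k with Serpina3n to 92.6% for Serpina3k with Serpina3m. Windows of 50 bases found in no other serpin gene made up 86.0% of the Serpina3k, 80.9% of the Serpina3m and 93.1% of the Serpina3n transcript. Reads of these 3 genes are thus easier to tell apart than those of the Serpina1 genes.

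Each Serpina1 gene has its own promoter, and these promoters are near-copies too. They are shown because all 5 genes had higher means in selenium livers, so the choice followed the result. Whether the promoters bear on that difference was not tested. The windows below hold 110 bases of the RefSeq promoter on the minus strand of chromosome 12, build GRCm38.p6, at chr12:103956956-103957065 for Serpina1e and chr12:103773630-103773739 for Serpina1d, the copy that differed most from it. The authors' files use another build, GRCm39. Capitals mark a 12-base run that includes GTTAAT, a half-site of the hepatocyte factor HNF1.
Serpina1e: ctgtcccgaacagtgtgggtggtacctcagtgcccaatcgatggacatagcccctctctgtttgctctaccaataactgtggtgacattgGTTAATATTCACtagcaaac
Serpina1d: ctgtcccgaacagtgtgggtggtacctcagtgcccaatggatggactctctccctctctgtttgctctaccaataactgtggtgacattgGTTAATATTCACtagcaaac
Across all 5 genes 100 of the 110 positions were identical, with 6 differences between Serpina1d and Serpina1e. GTTAAT, searched on both strands, was in promoters of 5 of 5 Serpina1 genes, which are near-copies and not separate observations. It was in promoters of 7 of the 20 matched serpin genes that passed the filter, against 7.10% of 32851 promoters of the same length. Here and below, serpins are counted as genes with a match in any of their promoters. The shares of all are counted per promoter, so the units differ. The run GTTAATATTCAC was picked after the sequences were seen and occurred in these 5 promoters alone among the 32851. Among all 54 serpin genes with a matched promoter, GTTAAT was in 11. The E-box CACGTG, on both strands, was in 0 of the 5, 0 of the 20 and 0 of the 54, against 7.15% of all promoters. C/EBP-type matches, TTNNGNAA on both strands, were in 4 of the 5 Serpina1 genes, 15 of the 20 and 40 of the 54, against 40.7% of all promoters. The D-box TTATGNAA on both strands, itself a TTNNGNAA match, was in 0 of the 5, 1 of the 20 (Serpina3n) and 3 of the 54, against 3.385% of all. The STAT-type TTCNNNGAA on both strands was in 0 of the 5, 4 of the 20 (Serpina11, Serpina3f, Serpina3g and Serpinb6a) and 8 of the 54, against 8.30% of all. A match describes letters and shows no binding.

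Expression was given as TPM, a level corrected for transcript length and scaled to 1 fixed sum per library, which leaves the depth behind a value unknown. Genes were tested where they reached 1 TPM in at least 6 of the 12 libraries, which held for 9980 genes. Pairwise correlations of log2 levels between libraries ran from 0.935 to 0.986 across genes. Control 5 and selenium 3 stood apart in inflammation genes, as described with the acute phase genes below, and the clock gene Dbp was above 15 TPM in controls 5 and 6 and selenium 1 and 5 and under 2 TPM in the other 8. No batch is labelled. The labels number the liver samples within each group, and no statement ties samples of the groups to each other.

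Serpin transcripts made up a few percent of the liver's RNA, and most of that came from 4 genes. Their summed TPM was 2.25% ± 0.354 of the total in controls and 2.83% ± 0.625 in selenium livers (SD, n = 6 each). The lowest library held 1.62% (control 5) and the highest 4.03% (selenium 2), and the groups overlapped. By mean TPM over the 12 libraries, Serpina1a ranked 26th of all genes, Serpina1b 27th, Serpina1c 29th and Serpina3k 40th. Serpinc1, which encodes antithrombin, ranked 73rd and Serpina1d 109th. In bulk tissue, fewer cells of a type and less RNA per cell cannot be told apart, which holds for every level below.

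**Figure D1:**
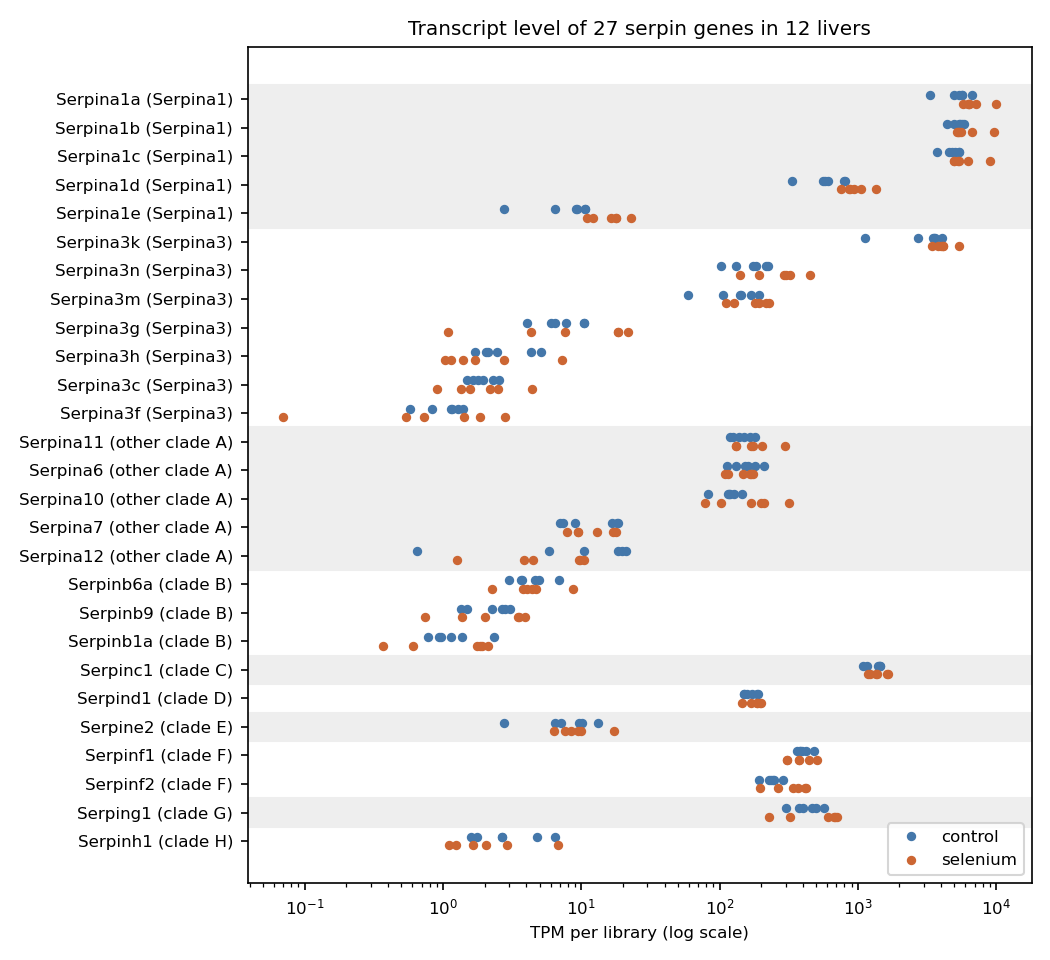
TPM on a log scale for the 27 serpin genes that passed the filter, 1 point per library, controls in blue and selenium livers in orange, with shaded bands separating the clusters and clades. Levels span from 0.07 TPM (Serpina3f in selenium 5) to 10039 TPM (Serpina1a in selenium 2), and the groups are separate for Serpina1e alone.

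Of the 65 serpin rows, 27 passed the filter, namely 5 Serpina1, 7 Serpina3 and 5 other clade A genes, 3 of clade B and 7 of clades C to H. Chromosome 12, which carries the Serpina clusters, holds 24 of the symbols, of which 16 passed. Of the other 38 rows, 14 were listed at 0 in every library and 24 had some signal without reaching the filter. In clade B 13 of 28 genes were at 0 throughout, while no gene of clade A was.

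**Figure D2:**
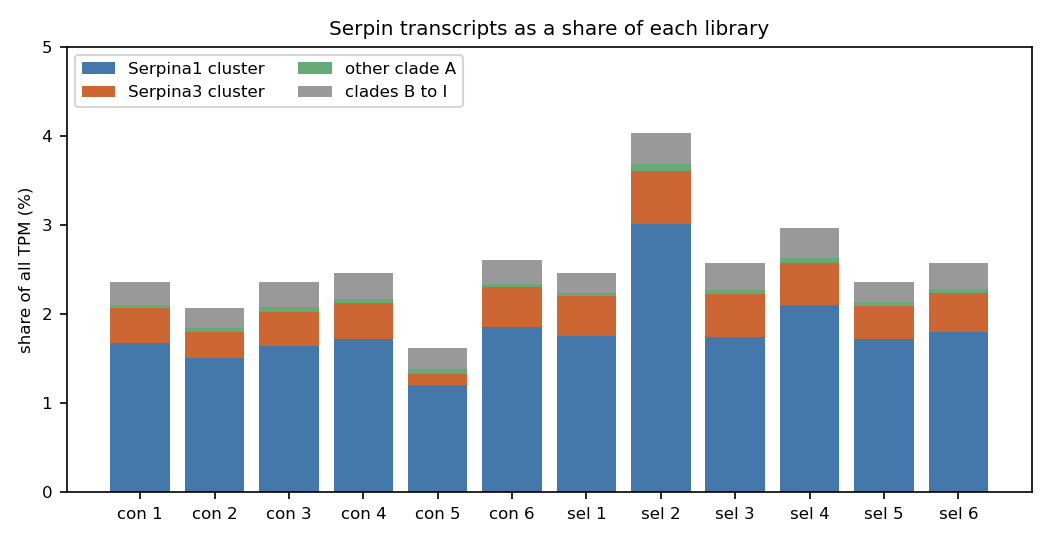
Stacked bars of the share of all TPM, in percent, taken by the Serpina1 cluster, the Serpina3 cluster, the other clade A genes and clades B to I in each of the 12 libraries. The Serpina1 cluster is the tallest part of every bar, selenium 2 reaches 4.03% in all and control 5 is the lowest at 1.62%.

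The comparison of selenium with control livers asks how the treatment bears on liver expression. Most serpins that passed the filter had higher means in selenium livers, with differences that were modest beside the spread between mice, and no gene passed the adjusted test. In limma with Benjamini-Hochberg adjustment, 0 of 27 were higher and 0 lower at an adjusted p under 0.05, beside 0.02% of the 9980 tested genes higher and 0.311% lower. The smallest adjusted p of a serpin was 0.0961, for Serpina1e. At an unadjusted p under 0.05, limma gave 5 serpins higher (Serpina1e, Serpina1d, Serpina3n, Serpinf2 and Serpina1a) and 0 lower, where the background was 7.01% higher and 11.4% lower. The exact permutation test per gene also gave 5 higher and 0 lower at an unadjusted p under 0.05, with Serpina3k in place of Serpina3n, and 0 at an adjusted one. The split of all genes moves with the scaling, from 700 higher and 1142 lower at an unadjusted p under 0.05 to 1338 and 963 under quantile normalization and 367 and 1819 after rescaling TPM without mitochondrial-encoded genes.

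The log2 change, selenium minus control on log2(TPM + 1), was above 0 for 22 of the 27 genes with a median of 0.21. Over all tested genes 45.4% were above 0 and the median was -0.03. Rescaling without mitochondrial-encoded genes moved the median of all genes to -0.11 and put 6 of the 22 below 0, namely Serpinc1, Serpina7, Serpinb9, Serpinb6a, Serpina3c and Serpina3f. The 15 serpins with a mean of at least 100 TPM had a median of 0.29, beside -0.03 for the 705 genes at that level. In the authors' deposited table, 4 of the 65 serpin rows were higher and 0 lower at the authors' adjusted p under 0.05, where 1.25% of the 57010 genes were higher and 0.909% lower. These were Serpina1e, Serpina1d, Serpina3n and Serpinf2, all among the 27 that passed the filter. By the authors' deposited table, 6.97% of the 9980 genes that passed were higher and 2.9% lower. The count of 5 genes at an unadjusted p fell to 2 without control 5 and selenium 2, to 2 without control 5 and selenium 3, and to 3 when control 2, control 5, selenium 2, selenium 3 or selenium 4 was left out alone.

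**Figure D3:**
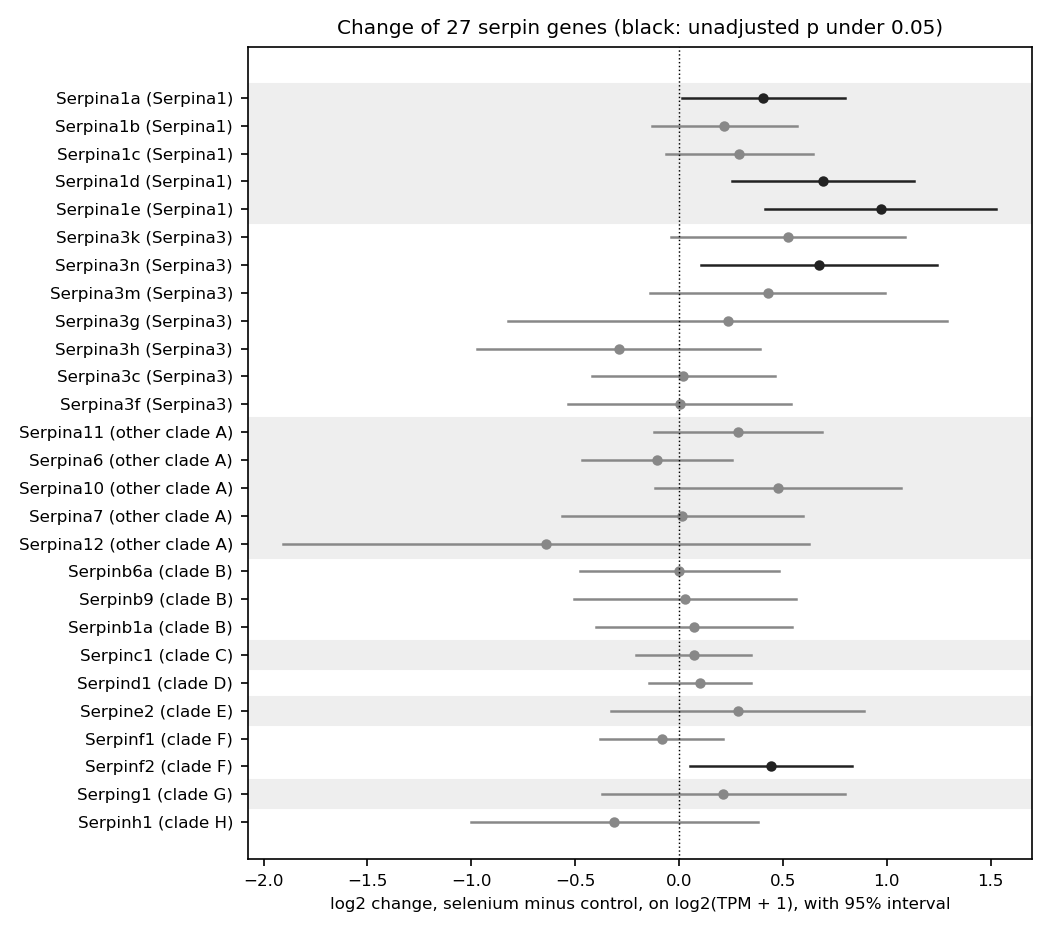
Log2 change (selenium minus control, on log2(TPM + 1)) with its 95% interval from limma for the 27 serpins that passed the filter; black marks an unadjusted p under 0.05. The 5 black points are all to the right of 0, from 0.41 for Serpina1a to 0.97 for Serpina1e, and none passed the adjusted test.

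Transcripts of the Serpina1 cluster, related to human alpha-1-antitrypsin, were the most abundant serpin transcripts in every liver. Their summed level was 16010 ± 2253 TPM in controls and 20260 ± 5038 TPM in selenium livers (SD, n = 6 each), a ratio of 1.265. Selenium 2 reached 30120 TPM, the other selenium livers lay between 17260 and 21070 TPM and the controls between 12040 and 18580 TPM. The ratio was 1.142 without selenium 2 and 1.088 without control 5 and selenium 2. With the cluster entered as 1 summed feature in limma, it did not reach an unadjusted p under 0.05. All 5 genes that passed had a log2 change above 0, with a median of 0.41. The sixth member, Serpina1f, reached at most 0.02 TPM.

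Serpina1e was the least abundant of the 5 and showed the widest separation. It measured 10.72, 9.18, 9.39, 6.51, 2.78 and 10.63 TPM in controls 1 to 6, and 17.77, 17.74, 22.93, 16.27, 11.07 and 12.21 TPM in selenium livers 1 to 6. Every selenium liver was above every control, although selenium 5 exceeded control 1 only narrowly. Such a separation in this direction was seen in 0.16% of tested genes, and Serpina1e was the only serpin among them. Its log2 change was 0.97 (SE 0.26, 95% interval 0.41 to 1.53, limma unadjusted p = 0.00217, adjusted p = 0.0961, exact permutation p = 0.00216, two-sided). The change was 0.73 without control 5 and 0.63 without control 5 and selenium 3. Serpina1e took only 0.05003% ± 0.0161 of the cluster's TPM in controls and 0.0834% ± 0.0278 in selenium livers (SD, n = 6 each). As a share the groups overlapped, 0.0231% to 0.0639% against 0.0589% to 0.131%, with selenium 2 below controls 1 and 2. Its level is so small a part of the near-identical copies that the split of reads among them makes it uncertain. The authors' deposited table gives a log2 change of 1.05 for it with an adjusted p of 0.00436.

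Serpina1d had a control range of 335 to 801 TPM with a median of 594, and a selenium range of 761 to 1347 TPM with a median of 907. Only selenium 5 lay below the highest control. The log2 change was 0.70 (SE 0.20, 95% interval 0.26 to 1.13, limma unadjusted p = 0.00425, adjusted p = 0.117). The authors' deposited table lists 0.75 with an adjusted p of 0.0154. Its share of the cluster's TPM was 3.86% ± 1.03 in controls and 4.84% ± 0.595 in selenium livers (SD, n = 6 each), with overlapping ranges, since controls 1 and 5 lay above the lowest selenium livers.

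Serpina1a, Serpina1b and Serpina1c together held nearly all of the cluster. Serpina1a ranged from 3335 to 6716 TPM in controls (median 5533) and from 5725 to 10039 TPM in selenium livers (median 6321). Controls 1 to 5 were below the lowest selenium liver, while control 6 was above 4 of the selenium livers. The difference on the log2 scale was 0.41 (SE 0.18, 95% interval 0.01 to 0.80, limma unadjusted p = 0.0429, adjusted p = 0.253), and 0.17 without control 5 and selenium 2.

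Serpina1b lay between 4388 and 5840 TPM in controls (median 5421) and between 5190 and 9645 TPM in selenium livers (median 5473). The medians were close, and selenium 2 and selenium 4 alone exceeded all controls. The log2 change was 0.22 (SE 0.16, 95% interval -0.13 to 0.57, limma adjusted p = 0.500) and 0.09 without selenium 2. Serpina1c ranged from 3758 to 5362 TPM in controls (median 4910) and from 4967 to 9075 TPM in selenium livers (median 5329). Selenium 2, 4 and 5 exceeded all controls, selenium 5 by a small margin. For this gene the log2 change was 0.29 (SE 0.16, 95% interval -0.06 to 0.64, limma adjusted p = 0.373) and 0.16 without selenium 2.

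**Figure D4:**
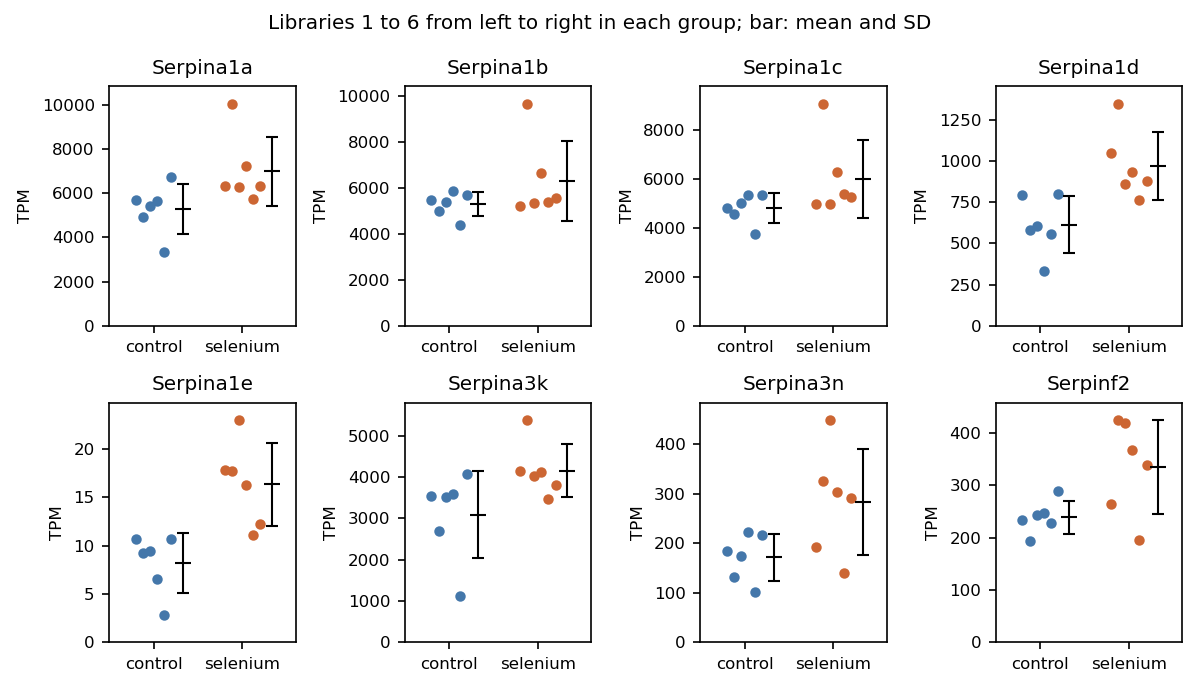
TPM of 8 serpin genes in each library on axes that start at 0, libraries 1 to 6 from left to right in each group, with the group mean and SD as a bar beside the points. Selenium 2 is the highest point for Serpina1a to Serpina1d, Serpina3k and Serpinf2, control 5 is the lowest control for 6 of the 8 genes, and the groups are separate in the Serpina1e panel alone.

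The Serpina3 cluster, related to antichymotrypsin, summed to 3412 ± 1143 TPM in controls and 4640 ± 733 TPM in selenium livers (SD, n = 6 each), a ratio of 1.36. Without control 5, which held 1305 TPM, the ratio was 1.21, and as 1 summed feature in limma this cluster did not reach an unadjusted p under 0.05 either. Of the 7 genes that passed the filter, 6 had a log2 change above 0, with a median of 0.23 over the 7. Serpina3k took 90.2% ± 1.99 of the cluster in controls and 89.7% ± 3.00 in selenium livers.

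Serpina3k, a liver-secreted member known as a kallikrein-binding protein, ranged from 1128 to 4071 TPM in controls (median 3525) and from 3466 to 5376 TPM in selenium livers (median 4076). Control 5 was far below the other controls, which overlapped the selenium livers. Its log2 change was 0.52 (SE 0.26, 95% interval -0.04 to 1.09, limma adjusted p = 0.309) and was 0.26 without control 5.

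Serpina3n, an acute phase gene whose product inhibits cathepsin G and granzyme B, ranged from 102 to 223 TPM in controls (median 180) and from 140 to 449 TPM in selenium livers (median 297). Selenium 2, 3, 4 and 6 were above every control, and selenium 1 and 5 lay within the control range. The log2 change was 0.67 (SE 0.27, 95% interval 0.11 to 1.24, limma unadjusted p = 0.0232, adjusted p = 0.201), with an exact permutation p of 0.0519. Without control 5 and selenium 3 it was 0.38 with an unadjusted limma p of 0.129. The authors' deposited table lists a log2 change of 0.76 for this gene with an adjusted p of 0.0169.

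Serpina3m ranged from 59.3 to 192 TPM in controls (median 141) and from 111 to 227 TPM in selenium livers (median 187). Control 5 was again the lowest, and the groups overlapped over most of their range. The gene had a log2 change of 0.43 (SE 0.27, 95% interval -0.14 to 0.99, limma adjusted p = 0.413) and was 0.21 without control 5.

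The low members of the cluster had changes on both sides of 0. Serpina3g, an intracellular member known from activated immune cells, averaged 7.56 ± 2.56 TPM in controls and 11.9 ± 8.62 TPM in selenium livers, with a log2 change of 0.23. Its selenium values split widely, from 1.09 TPM in selenium 5 to 21.6 TPM in selenium 4, and the change was -0.01 without selenium 4 and 0.68 without selenium 5. Serpina3c averaged 1.95 ± 0.392 and 2.15 ± 1.24 TPM (log2 change 0.02), and Serpina3f 1.07 ± 0.303 and 1.23 ± 0.993 TPM (log2 change 0.00). Serpina3h, under the identifier ENSMUSG00000121484, averaged 2.97 ± 1.41 and 2.54 ± 2.38 TPM with a log2 change of -0.29 that was -0.57 without selenium 3 and -0.15 without control 5. It was highest in selenium 3 and control 5, in either group the library with the most acute phase RNA. A further 5 rows of the cluster stayed under the filter, up to 4.85 TPM for the other Serpina3h identifier.

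The other clade A genes include hormone carriers and a coagulation inhibitor, and their changes lay on both sides of 0. Their summed level was 449 ± 63.3 TPM in controls and 529 ± 153 TPM in selenium livers (SD, n = 6 each), a ratio of 1.18. Of the 5 that passed, 3 had a log2 change above 0. The changes ran from -0.64 to 0.48 with a median of 0.015, which is the value of Serpina7. Serpina6, the corticosteroid carrier, ranged from 114 to 210 TPM in controls and from 109 to 174 TPM in selenium livers, with a median of 157 TPM in both. The 2 groups lay over each other. Serpina6 had a log2 change of -0.11 (SE 0.17, 95% interval -0.47 to 0.25, limma adjusted p = 0.781), and the change ran from -0.19 without control 2 to -0.02 without control 5.

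Serpina10, which inhibits coagulation factor Xa together with protein Z, ranged from 82.9 to 144 TPM in controls (median 118) and from 78.8 to 317 TPM in selenium livers (median 183). Selenium 2, 3, 4 and 6 exceeded all controls, and selenium 5 was the lowest library of all. The log2 change was 0.48 (SE 0.28, 95% interval -0.12 to 1.07, limma adjusted p = 0.385) and 0.28 without selenium 2.

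Serpina11 ranged from 119 to 182 TPM in controls (median 144) and from 132 to 296 TPM in selenium livers (median 171). Selenium 2 stood well above the rest, and selenium 4 was the only other library above all controls. The log2 change was 0.28 (SE 0.19, 95% interval -0.12 to 0.69, limma adjusted p = 0.445) and 0.14 without selenium 2. Serpina7, the thyroxine carrier, averaged 12.7 ± 5.49 TPM in controls and 12.4 ± 4.19 TPM in selenium livers (log2 change 0.015, and from -0.117 to 0.134 when single libraries were left out).

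Serpina12, the adipokine vaspin, averaged 12.7 ± 8.37 TPM in controls and 6.60 ± 3.89 TPM in selenium livers, with a log2 change of -0.64. It varied widely among controls, from 0.65 to 21.1 TPM, and its 95% interval ran from -1.91 to 0.63. Leaving out single libraries moved the change from -1.17 without control 4, with an unadjusted limma p of 0.017 and an adjusted one of 0.215, to -0.42 without control 3 and -0.33 without selenium 6. Serpina5, Serpina9 and Serpina16 stayed under the filter, at most 0.93 TPM.

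Among clades C to H stand the main brakes on clotting, fibrinolysis and complement, and 5 of 7 had a log2 change above 0, with a median of 0.10. Serpinc1, the plasma inhibitor of thrombin and factor Xa, ranged from 1098 to 1455 TPM in controls (median 1415) and from 1181 to 1655 TPM in selenium livers (median 1362). The groups lay over each other, with selenium 2 and 4 above all controls. Its log2 change was 0.07 (SE 0.13, 95% interval -0.21 to 0.35, limma adjusted p = 0.817), and -0.03 after rescaling without mitochondrial-encoded genes. As a share of all serpin TPM, Serpinc1 was 5.97% ± 0.436 in controls and 5.02% ± 0.504 in selenium livers (SD, n = 6 each). Those shares did not overlap, 5.58% to 6.78% against 4.10% to 5.45%, and they depend on the Serpina1 genes in the denominator. The separation was picked out from the shares of all 27 genes that passed the filter, of which no other was separate. It was not tested, and no such share was computed for genes outside the serpins.

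Serpinf2, which encodes the plasmin inhibitor alpha-2-antiplasmin, ranged from 193 to 290 TPM in controls (median 239) and from 195 to 424 TPM in selenium livers (median 353). Selenium 2, 3, 4 and 6 were above every control, while selenium 1 and selenium 5 were not. Its log2 change was 0.45 (SE 0.18, 95% interval 0.06 to 0.83, limma unadjusted p = 0.0280, adjusted p = 0.216), with an exact permutation p of 0.0455. The authors' deposited table lists 0.47 for Serpinf2 with an adjusted p of 0.0344.

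Serping1, the inhibitor of complement C1 proteases and plasma kallikrein, averaged 434 ± 94.6 TPM in controls and 536 ± 206 TPM in selenium livers (log2 change 0.21). It followed the same 4 selenium livers: selenium 2, 3, 4 and 6 lay above all controls, and selenium 5 was the lowest library at 228 TPM. Dbp was under 2 TPM in these 4 livers and 31.5 and 53.6 TPM in selenium 1 and 5. In the controls with high Dbp, Serping1 was 464 TPM (control 5) and 301 TPM (control 6, the lowest control). Why the splits coincide was not tested. With Dbp as a covariate the log2 change of Serping1 was 0.26. The change was 0.11 without selenium 3 and 0.44 without selenium 5. Serpind1, heparin cofactor II, varied least among the 27, from 146 to 199 TPM over all livers (log2 change 0.10, and 0.07 to 0.16 when single libraries were left out). Serpinf1, pigment epithelium-derived factor, averaged 403 ± 41.6 and 385 ± 77.5 TPM (log2 change -0.08, and -0.165 to -0.022 when single libraries were left out), and the authors' deposited table lists 0.13 for it with an adjusted p of 0.651.

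Serpine2, protease nexin 1, averaged 8.20 ± 3.58 and 9.81 ± 3.82 TPM, with a log2 change of 0.28 that was 0.05 without control 5 and 0.43 without control 6. Serpinh1, the collagen chaperone of the endoplasmic reticulum, averaged 3.32 ± 1.89 TPM in controls and 2.61 ± 2.13 TPM in selenium livers (log2 change -0.31, with -0.13 without control 5 and -0.56 without selenium 3). Its highest values were 6.74 TPM in selenium 3 and 6.41 TPM in control 5. Serpine3 was listed at 0 throughout, and the neuroserpin gene Serpini1 and Serpini2 reached at most 0.21 TPM.

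Clade B genes encode intracellular inhibitors of leukocyte proteases and were scarce in these livers. Serpinb6a, an inhibitor of cathepsin G, ranged from 2.99 to 6.87 TPM in controls (median 4.18) and from 2.25 to 8.66 TPM in selenium livers (median 4.24). Serpinb9, which protects cells from granzyme B, ranged from 1.34 to 3.05 TPM (median 2.48) and from 0.74 to 3.93 TPM (median 2.75). Serpinb1a, an inhibitor of neutrophil elastase, ranged from 0.78 to 2.35 TPM (median 1.06) and from 0.37 to 2.1 TPM (median 1.80). For each of the 3 the selenium range reached below the control range, and the groups overlapped. Their log2 changes were 0.00 (SE 0.22, 95% interval -0.48 to 0.48), 0.03 (SE 0.25, 95% interval -0.50 to 0.56) and 0.07 (SE 0.22, 95% interval -0.40 to 0.55), with limma adjusted p of 0.999, 0.967 and 0.894. The other 25 genes of the clade stayed under the filter, 13 of them at 0 in all libraries and 12 at up to 1.70 TPM.

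Set against each other, the Serpina1 and Serpina3 clusters had a median log2 change of 0.35 over 12 genes, 11 of them above 0, and the other serpins 0.07 over 15 genes, 11 of them above 0. The Serpina1 genes among the 12 are near-copies whose reads are hard to tell apart, so the 12 are not separate observations. The summed TPM of both clusters over that of all other serpins was 6.38 ± 0.989 in controls and 7.39 ± 1.01 in selenium livers (SD, n = 6 each). Controls ranged from 4.66 to 7.55 and selenium livers from 6.31 to 8.46, so the groups overlapped. Control 5 had the lowest ratio and selenium 2, selenium 1 and selenium 5 the highest. Within the pair of clusters, Serpina1 exceeded Serpina3 by 3.70 to 5.11 times in 11 livers and by 9.23 times in control 5. The group means of the ratio to all other serpins differed by about 1 SD of either group, and this ratio was not tested.

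The same mice set the extremes of many serpins at once. Selenium 2 was the highest library for 13 of the 27 genes and selenium 3 for 8, whereas control 5 was the lowest for 9 and selenium 5 for 6. Selenium 2 led the abundant hepatocyte serpins, among them Serpina1a to Serpina1d, Serpina3k, Serpinc1 and Serpinf2. Selenium 3 led Serpina3n, Serpina1e and Serping1 and low genes such as Serpinh1, Serpinb9 and Serpina3f. Control 5 was lowest for 4 Serpina1 and 3 Serpina3 genes, Serpinc1 and Serpine2, and highest for the hormone carriers Serpina6 and Serpina7.

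Serpina3n is known to respond to inflammation, so the serpins are set beside other acute phase genes. Serum amyloid A1 (Saa1) reached 4541 TPM in control 5 and 8641 TPM in selenium 3 and lay between 62.6 and 1020 TPM in the other 10 livers. Lipocalin 2 (Lcn2) was 1792 and 1410 TPM in the same livers and at most 398 TPM elsewhere. Both livers, 1 in each group, were thus high for Saa1 and Lcn2. They stood at opposite ends for Serpina3n, which was 102 TPM in control 5 and 449 TPM in selenium 3. Serpina3k was 1128 TPM in control 5 and 4022 TPM in selenium 3. Other acute phase genes went either way. Hp, Hpx and Orm1 were highest in these same livers. Fga (813 and 3069 TPM) and Crp (99.7 and 277 TPM) were, like Serpina3n, lowest in control 5 and highest in selenium 3. Of the 23 acute phase genes tested, 0 passed the adjusted limma test in either direction, 1 was higher (Fga) and 0 lower at an unadjusted p under 0.05, beside 7.01% and 11.4% of all tested genes, and the median log2 change was 0.01. The 3 with the smallest p were Fga (0.62), Itih3 (0.43) and Fgg (0.36).

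**Figure D5:**
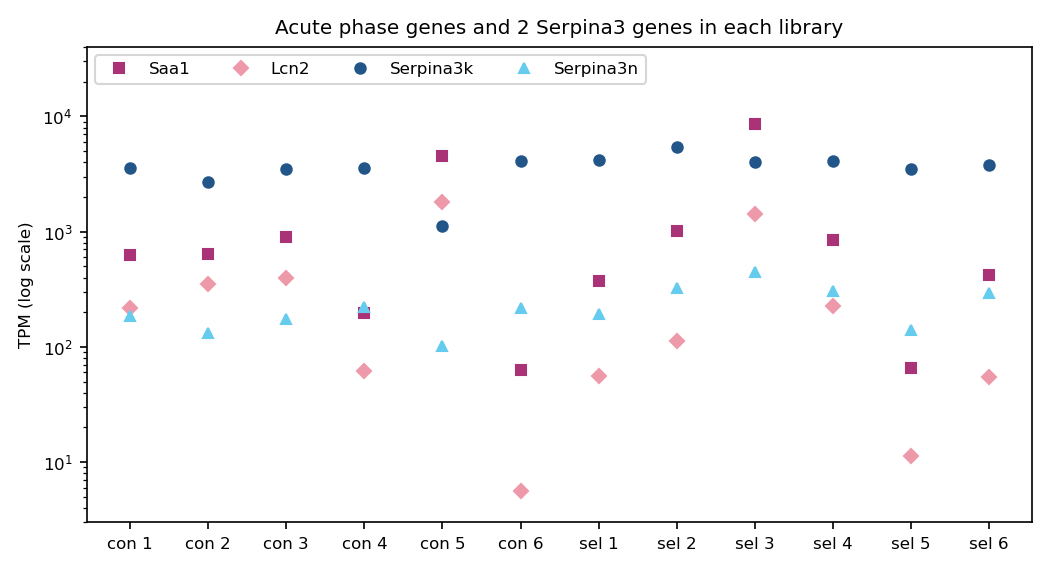
TPM on a log scale of Saa1, Lcn2, Serpina3k and Serpina3n in the 12 libraries, 1 symbol per gene. Saa1 and Lcn2 peak in control 5 and selenium 3, where Serpina3n is 102 and 449 TPM and Serpina3k 1128 and 4022 TPM.

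Control 5 and selenium 3 also had the highest summed TPM for several lists of other cell type markers, in sums led by few genes each. The summed TPM of 6 bile duct cell markers was 270 in control 5 and 133 in selenium 3 and 16.7 to 38.1 elsewhere. Nearly all of it was Spp1, at 266 TPM in control 5 and 129 TPM in selenium 3. Sox9 was also highest in control 5, at 2.74 TPM, while Krt19, Krt7, Epcam and Cldn7 were highest in control 6. The sum is therefore no measure of bile duct cells. For 7 neutrophil markers the sum was 96.9 and 71.7 against 3.44 to 24.6, and for 8 T and NK cell markers 45.0 and 26.1 against 1.89 to 13.5. S100a8 and S100a9 made up most of the neutrophil sum in these livers, and Ccl5 (36.0 and 17.1 TPM) most of the other. Csf3r and Mmp8 were also highest in these livers, while Ngp, Camp and Cd3e were highest in others. Platelet markers summed to 12.2 and 7.91 TPM in control 5 and selenium 3 and 1.54 to 5.26 TPM elsewhere. Hepatocyte markers summed to 30620 TPM in control 5 and 31120 TPM in selenium 3, within a range of 30620 to 50810 TPM. Kupffer cell markers ranged from 38.9 to 101 TPM in controls and 43.0 to 192 TPM in selenium livers, and all 8 had a log2 change above 0, beside 45.4% of tested genes, with a median of 0.49 and 0 past either threshold. In the other direction, 0 of the 4 stellate cell markers tested were above 0 (median -0.30, with 1 lower at an unadjusted p under 0.05). Likewise 0 of 3 T and NK cell markers were above 0 (median -0.57, with 2 lower at that threshold), as were 0 of 2 bile duct cell and 0 of 2 neutrophil markers, with 0 past it. Sinusoidal endothelial markers ranged from 21.9 to 56.3 TPM and 29.3 to 49.2 TPM, and stellate cell markers from 48.7 to 70.0 TPM and 18.8 to 75.7 TPM. No marker of these lists was at 0 in all libraries. The part of these cells, and of the inflammation genes, in the serpin differences was not tested.

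Around the serpins, 5 lists of related genes were read from the same fit, and 0 genes of any of them passed the adjusted limma test. Over all tested genes, 7.01% were higher and 11.4% lower at an unadjusted p under 0.05, and a count near those shares says nothing particular of a list. Of 23 genes tested in the list of target proteases, which also holds Mbl2, a lectin and not a protease, 2 were higher and 2 lower at an unadjusted p under 0.05. Their median log2 change was -0.03. C1s2, a copy of the complement protease C1s, had -0.63 (limma adjusted p = 0.104), plasma prekallikrein (Klkb1) -0.29 and matriptase-2 (Tmprss6), a regulator of hepcidin, 0.42. Of 24 cofactors, receptors and secretion factors, 4 were higher and 1 lower at that threshold, with a median of 0.02. Among them the clearance receptor Lrp1 had 0.34, the cargo receptor Surf4 0.29 and the folding chaperone calnexin (Canx) 0.43. Angiotensinogen (Agt), a clade A serpin under another symbol, had -0.07 (limma adjusted p = 0.866).

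Of 19 transcription regulators tested, 2 were higher and 1 lower at an unadjusted p under 0.05, with a median of 0.00. Cebpb, a factor of the acute phase response, was 15.8 to 30.0 TPM in controls and 3.99 to 14.6 TPM in selenium livers, so the groups were separate. Its log2 change was -1.04 (SE 0.24, limma adjusted p = 0.0671), and a separation in this direction was seen in 1.47% of tested genes. Stat3, which carries interleukin-6 signals, had 0.61 and Hnf4a, a master factor of hepatocytes, 0.39.

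Among the 18 genes tested in the list of other protease inhibitors, which also holds the carboxypeptidase Cpb2, 2 were higher and 3 lower at an unadjusted p under 0.05. Their median was -0.03. Mug2, a murinoglobulin of the alpha-2-macroglobulin family, was 3.83 to 20.6 TPM in controls and 1.25 to 3.63 TPM in selenium livers, again without overlap, with a log2 change of -1.59 (SE 0.33, limma adjusted p = 0.0532). Tfpi, an inhibitor of the tissue factor pathway, had -0.41 and Itih2, an inter-alpha-trypsin inhibitor chain, 0.40.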

How the data were processed

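Liver RNA was sequenced in 12 libraries, 6 per group. Per the labels' protocols, frozen tissue was extracted with TRIzol, purified with an RNeasy kit and made into Illumina libraries; the sources used here do not give RNA selection or strand handling. The submitters' processing notes name the GRCm39 build and, as tools, HISAT2 2.1.0, RSEM 1.2.8 and DESeq2. The authors deposited TPM per gene and library. The authors' deposited table also holds their log2 fold change of control over selenium, whose sign was turned here, and raw and adjusted p-values by the authors; which tool gave them is not stated. TPM keeps no depth, so no interval from counts is given.

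Genes with at least 1 TPM in 6 or more libraries were tested on log2(TPM + 1) with limma 3.58.1 in R 4.3.3 (intensity trend, two-sided, no covariate, Benjamini-Hochberg over 9980 genes, threshold 0.05). The pseudocount of 1 understates changes of low genes. The limma p-values set each group difference against the spread between these samples, moderated across genes with the intensity trend. The exact permutation test used all 924 labellings. Tested on simulated data for this comparison with 9980 genes, recovery was 46.6% at a true change of 1.5-fold, 84.8% at 2-fold and 95.2% at 3-fold, and 5.60% of calls were false. The simulated noise was independent between genes, while in the real livers the same mice set the extremes of many genes. The adjusted cutoff also depends on how many changed genes were planted. These shares are therefore not the recovery to be had in the real data. Sums over members are given without a p. The alternative with each cluster summed to 1 feature put both sums through limma among 17 serpin features, and neither sum reached an unadjusted p under 0.05. The values of 1 member under the filter are not reported here. The members and lists were chosen with earlier results of these data known. Full statistics were given for serpins with an unadjusted p under 0.05, the 3 most abundant of each Serpina or Serpinb group and the most abundant of clades C to I; of each related list, genes past the adjusted threshold or else the 3 with the smallest p, and Agt. Other levels beside them (Saa1, Lcn2, Dbp) were named after their values were seen. Alternatives covered pseudocounts of 0.1 and 0.5, no filter and a filter of 5 TPM, 3 scalings, 3 variance or weight models, the permutation test, a replicate block, Dbp as a covariate, summed clusters and leaving out libraries; leaving out control 5 with selenium 2 or with selenium 3 was chosen after seeing the data. Sequences were read with Biopython 1.88 from GENCODE release M21 transcripts and RefSeq promoters (250 bases before to 50 after the start, 54 serpin symbols matched). Plots were drawn with matplotlib 3.10.9.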

Additional observations from a re-analysis of the deposited data

Results flagged for a closer look

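In the 27 tested serpins and 4 cluster sums, each library was compared with the others of its group, 62 groups in all, and a library was marked where its gap to the nearest other exceeded 0.625 of the group's range; chance alone marks about 1 in 20 groups. There were 8 marks, all in selenium livers. Selenium 2 was far above the other selenium livers for Serpina1a (10039 TPM, others up to 7207), Serpina1b (9645 TPM, others up to 6643) and Serpina1c (9075 TPM, others up to 6273). The Serpina1 cluster sum of 30120 TPM in that liver reflects the same genes. Selenium 2 also stood apart for Serpina3k, at 5376 TPM with the others up to 4156, and for Serpine2, at 17.2 TPM with the others up to 9.88. Selenium 3 stood apart for the collagen chaperone Serpinh1, at 6.74 TPM with the others up to 2.92, and for Serpina3h (ENSMUSG00000121484), at 7.24 TPM with the others up to 2.76. No cause of these values was tested.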

How the results depend on the processing

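No serpin passed the adjusted threshold in either direction under any of the 28 alternatives, and the smallest adjusted p over them was 0.0579 (without control 6). The count higher at an unadjusted p under 0.05 was 5, and became 3 with TPM rescaled without mitochondrial-encoded genes, 1 (Serpinf2, and neither summed cluster) with each cluster summed to 1 feature, 2 without control 5 and selenium 2, 2 without control 5 and selenium 3, and 3 to 6 when single libraries were left out. The count lower was 0, became 1 (Serpina12) with array weights and was 0 to 1 when single libraries were left out. The replicate block gave 7 higher and 0 lower. Same-numbered libraries deviated together with correlations of -0.136 to 0.107 and only 1 of 6 correlated best with its own number. These values show no pairing by number, and they cannot exclude one. The Serpina3 cluster ratio of 1.36 moved to 1.142 without control 5 and selenium 2. Of 737 log2 changes of single serpins under alternatives, 683 kept their direction and 54 reversed, in 10 genes; the cause was not tested. Rescaling without mitochondrial-encoded genes gave -0.027 for Serpinc1, -0.075 for Serpina7, -0.041 for Serpinb9, -0.079 for Serpinb6a, -0.050 for Serpina3c and -0.056 for Serpina3f. A pseudocount of 0.1 gave -0.007 for Serpinb9, -0.008 for Serpinb6a, -0.012 for Serpina3c and -0.234 for Serpina3f, and one of 0.5 gave -0.003 for Serpinb6a and -0.049 for Serpina3f. Median-of-ratios scaling gave -0.016 for Serpina3f, array weights 0.00 for Serpina6 and -0.180 for Serpina3c, and the Dbp covariate -0.003 for Serpinb6a. Without control 5 and selenium 2, the changes were -0.114 for Serpine2, -0.034 for Serpinc1, -0.018 for Serpinb9, -0.150 for Serpina3c and -0.021 for Serpina3f. Without control 5 and selenium 3, they were -0.011 for Serpinb1a, -0.159 for Serpinb9, -0.203 for Serpinb6a, 0.045 for Serpina6 and -0.247 for Serpina3f. Leaving out single libraries gave -0.117 to 0.134 for Serpina7, -0.011 to 0.676 for Serpina3g, -0.010 to 0.225 for Serpinb1a, -0.087 to 0.213 for Serpinb9, -0.169 to 0.145 for Serpinb6a, -0.152 to 0.148 for Serpina3c and -0.173 to 0.192 for Serpina3f. Depth is unknown from TPM, and the split of reads among near-identical Serpina1 copies limits single-copy values more than their sum.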
